A study of Mus musculus with 12 samples.

Results

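Astrocytes clear glutamate and GABA from the space around synapses, and 9 genes of this uptake and metabolism were followed here: Slc1a2, Slc1a3, Glul, Slc6a11, Slc38a3, Abat, Glud1, Grm3 and Grm5. They were given as a list of symbols and found by their Ensembl identifiers among the 41388 genes of each file, and all 9 passed the filter on low counts. The list covers 3 uptake transporters, 1 exporter, 3 enzymes and 2 receptors. RNA was sequenced from 12 libraries of 8 mouse brains. The aim was to compare wild-type astrocytes with those of mice designed to lose the clock transcription factor BMAL1 in astrocytes.

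Isolated astrocytes came from 5 knockout mice (aKO, Cre+; animals 203, 205, 208, 221 and 222) and 3 wild-type mice (WT, Cre-; animals 201, 202 and 265). Flowthrough, the brain cells left after the astrocytes were taken out, came from aKO 203 and 205 and from WT 201 and 202. All animals were Bmal fl/fl on a C57BL\6 background, and the aKO animals also carried ALDH1L1-CreERT2, a Cre recombinase that tamoxifen activates in cells using the Aldh1l1 promoter. All of them, WT included, were gavaged at 2 months of age with 2 mg of tamoxifen daily over 5 days, and were 7 months old when brains were collected. Cre was therefore present in aKO animals only, and its own effect cannot be told apart from that of the deletion. Astrocytes were isolated with magnetic beads against ACSA-2, a surface epitope carried by the protein of Atp1b2. All flowthrough titles also carry a letter b of unstated meaning, so anything it marks cannot be told apart from the fraction.

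For animal 202 the title of the astrocyte library says wild type and the genotype field says knockout. This library was kept as WT, and results were also computed with it as aKO. In that alternative the flowthrough library of 202 stayed WT. The flowthrough comparison was not run with animal 202 as aKO. Total counts lay between 21816637 and 62655238 in astrocyte libraries and between 33019572 and 53868165 in flowthrough. Mitochondrially encoded genes took 11.1% to 36.5% of the counts in astrocyte libraries and 4.81% to 12.9% in flowthrough. Their share was 36.5% in aKO astrocytes 222 and 32.7% in WT astrocytes 202. The targeted gene, listed as Arntl, stood at 10.5, 25.0, 8.99, 12.5 and 5.05 CPM (counts scaled to a fixed library total) in aKO astrocytes 203, 205, 208, 221 and 222, and at 3.50, 6.80 and 2.13 CPM in WT astrocytes 201, 202 and 265. A count over the whole gene includes exons outside the floxed part, so it tests neither the deletion nor the genotype labels. The 18 astrocyte markers took 0.365% of the counts in WT astrocytes 265 and 0.540% in aKO astrocytes 222, against 0.784% to 1.64% in the other 6 astrocyte libraries. WT flowthrough 202 held 0.589% of astrocyte marker counts, and the other flowthrough libraries held 0.0357% to 0.192%.

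As background, glutamate released at synapses is taken up by astrocytes through the transporters GLT-1 (gene Slc1a2) and GLAST (Slc1a3). Glutamine synthetase (Glul) turns it into glutamine, which leaves the cell through transporters such as SNAT3 (Slc38a3) and serves neurons as a source of new glutamate and GABA. GABA is taken up through GAT-3 (Slc6a11) and broken down by GABA transaminase (Abat), and glutamate dehydrogenase (Glud1) feeds glutamate into the tricarboxylic acid cycle. Astrocytes sense glutamate through the metabotropic receptors mGluR3 (Grm3) and mGluR5 (Grm5), and mGluR5 is also abundant in neurons.

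In GRCm38, Slc1a2 lies on chromosome 2 from 102658659 to 102790784, Slc1a3 on chromosome 15 from 8634124 to 8710764, and Slc6a11 on chromosome 6 from 114131241 to 114249886. Glul lies on chromosome 1 from 153899944 to 153909723, Slc38a3 on chromosome 9 from 107650639 to 107668968, Abat on chromosome 16 from 8513429 to 8621568, and Glud1 on chromosome 14 from 34310727 to 34345144. Grm3 lies on chromosome 5 from 9485236 to 9725352 and Grm5 on chromosome 7 from 87602544 to 88134907. Counts cover the exons of each gene. Exons of Slc1a2 overlap the antisense gene Gm13872, which had 2 to 681 counts, and exons of Glul overlap Teddm2 on the other strand, which had 15 to 79 counts. Whether counting used the strand is not given in the sources used here, and reads in these overlaps may not be told apart.

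Because BMAL1 and its partner CLOCK bind the E-box CACGTG, the promoters were searched for it and for CACGTT, a variant of it, on both strands. RefSeq windows of GRCm38.p6, from 250 bases before to 50 bases after the start site, were matched by symbol for 6 members (Slc1a2, Slc1a3, Glul, Slc6a11, Glud1 and Grm3). The Slc1a2 window, from 102706188 to 102706487, lies at a start site inside the gene and not at the 5′ end given above. The letters CACGTG stood in 0 of these 6 windows, and in 7.15% of the 32851 windows of all genes. CACGTT stood in 1 of the 6 and in 4.68% of all windows. The match was in Slc1a3, and its window, on the minus strand at chr15:8710758-8711057, is shown with the match, read on this strand as AACGTG, in capitals.
Slc1a3 promoter: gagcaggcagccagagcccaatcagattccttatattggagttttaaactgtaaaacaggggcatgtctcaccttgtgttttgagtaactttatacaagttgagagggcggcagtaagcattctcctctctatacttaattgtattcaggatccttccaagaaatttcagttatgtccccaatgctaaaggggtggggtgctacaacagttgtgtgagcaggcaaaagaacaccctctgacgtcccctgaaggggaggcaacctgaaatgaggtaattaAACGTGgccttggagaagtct
The match begins at base 30 counted from the start site of this window, which is after it. Both the start site and the match lie before the 5′ end of the counted gene, 8710764, so the match is outside the counted exons. A match of letters describes the window and shows no binding, and an absent match says only that these letters are not in these 300 bases.

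The isolated fraction held more RNA of the uptake transporters and of Grm3 than the flowthrough. Slc1a2, Slc1a3, Slc6a11 and Grm3 were higher in astrocytes, with log2 fold changes between 2.11 and 2.74, and no member was lower. The estimates of the other 5 members (Glul, Slc38a3, Abat, Glud1 and Grm5) also lay above 0, between 0.57 and 1.57, without passing the test. The test of all 12 libraries leaves out the pairing of fractions by animal. With the animal as a block in the 8 paired libraries, Abat, Glud1 and Grm5 passed, as given below. In the counts the authors deposited, edgeR (quasi-likelihood F test, p-values adjusted by Benjamini-Hochberg over 20637 genes) called 4 of 9 members at a threshold of 0.05, all higher, where 17.0% of all genes were called and 8.52% were called higher. The median log2 fold change was 1.57 over the members and 0.07 over all genes tested. In these bulk libraries, fewer cells of a type and less RNA per cell cannot be told apart.

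Slc1a2 had 518, 925 and 1385 CPM as the lowest, median and highest of the 8 astrocyte libraries. Its flowthrough values were 128 and 26.7 CPM in aKO 203 and 205, and 25.0 and 408 CPM in WT 201 and 202. The fractions did not overlap, and WT flowthrough 202 came closest to the astrocytes. The log2 fold change was 2.70 (SE 0.64, 95% interval 1.34 to 4.06, edgeR, Benjamini-Hochberg adjusted p = 0.00843). Slc1a3 had 333, 1227 and 1642 CPM as the lowest, median and highest in astrocytes. In flowthrough it had 131 and 47.7 CPM in aKO 203 and 205, and 91.1 and 637 CPM in WT 201 and 202. Here WT flowthrough 202 lay above 3 astrocyte libraries, aKO 208, aKO 222 and WT 265, so the fractions overlapped. On the log2 scale it differed by 2.33 (SE 0.60, 95% interval 1.07 to 3.60, edgeR adjusted p = 0.0131). Slc6a11 had 159, 234 and 390 CPM as the lowest, median and highest in astrocytes. Its flowthrough values were 59.2 and 8.96 CPM in aKO 203 and 205, and 7.10 and 159 CPM in WT 201 and 202. WT flowthrough 202 sat level with the lowest astrocyte library, aKO 222, and the other flowthrough libraries lay below all astrocyte libraries. Slc6a11 thus differed by 2.11 on the log2 scale (SE 0.64, 95% interval 0.75 to 3.47, edgeR adjusted p = 0.0325).

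**Figure D1:**
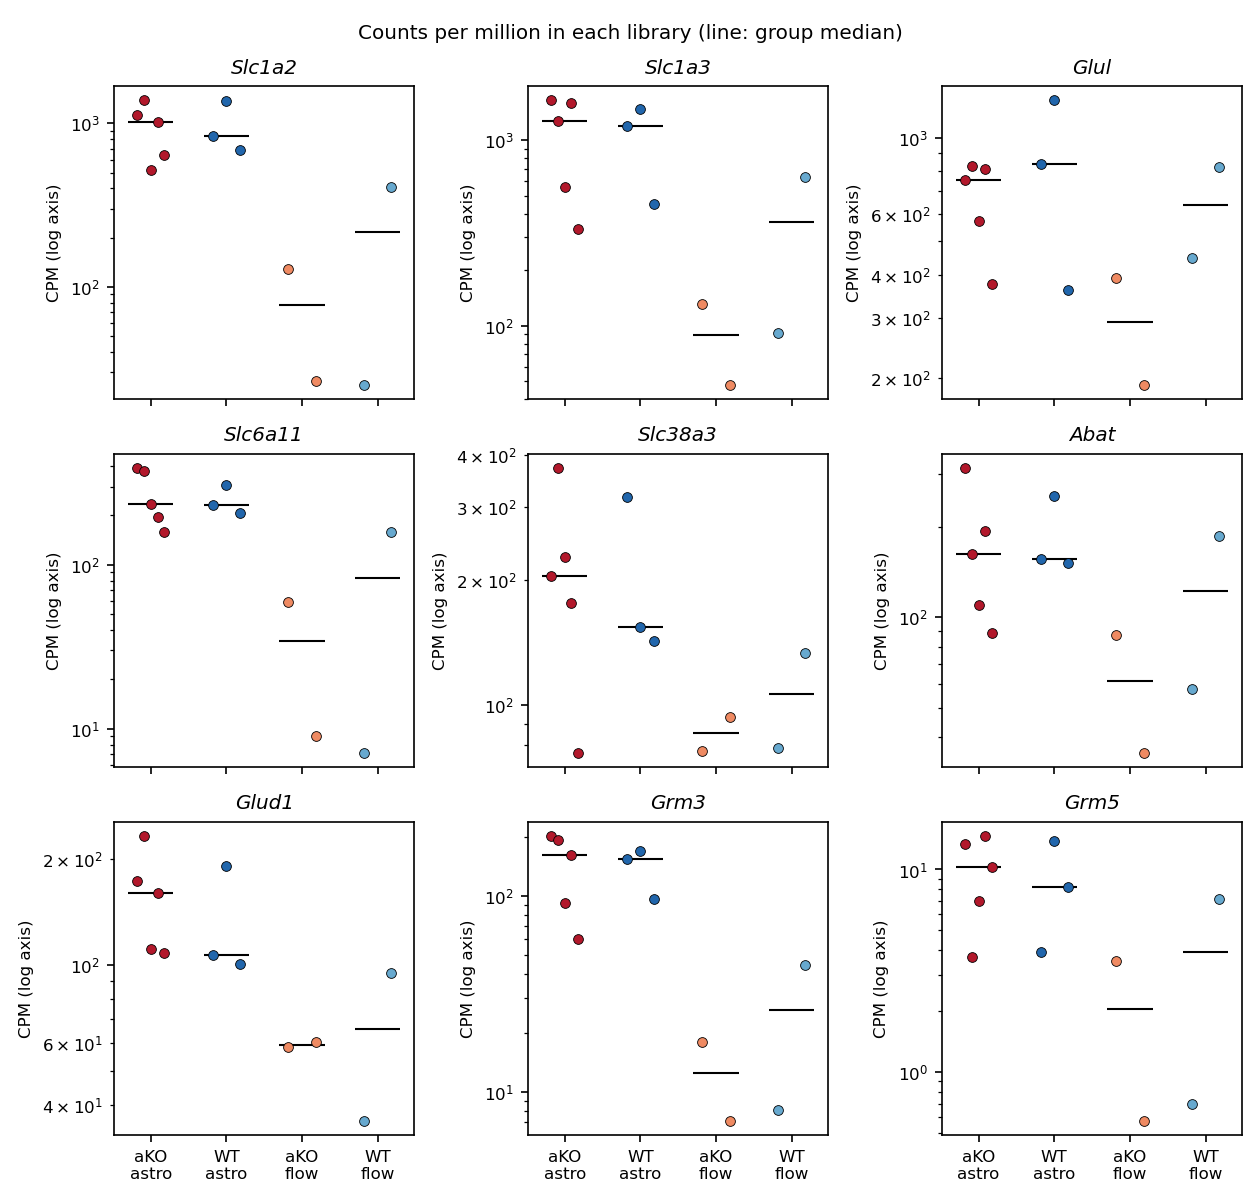
CPM of the 9 genes (log axis, each panel with its own range) in aKO astrocytes, WT astrocytes, aKO flowthrough and WT flowthrough, with 1 point per library and a line at the group median. For Slc1a2, Glud1 and Grm3 all 8 astrocyte libraries lie above all 4 flowthrough libraries, and aKO and WT astrocytes overlap in every panel.

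Glul was the member with the smallest difference between fractions. It had 362, 781 and 1284 CPM as the lowest, median and highest in astrocytes. In flowthrough it had 390 and 191 CPM in aKO 203 and 205, and 446 and 824 CPM in WT 201 and 202. The fractions overlapped, with WT flowthrough 202 above 5 of the 8 astrocyte libraries. The log2 fold change was 0.57 (SE 0.41, 95% interval -0.30 to 1.43, edgeR, Benjamini-Hochberg adjusted p = 0.360). Slc38a3, which carries glutamine with sodium, had 76.6, 190.2 and 372 CPM as the lowest, median and highest in astrocytes, and 77.3 and 93.7 CPM in aKO flowthrough 203 and 205 and 78.8 and 133 CPM in WT flowthrough 201 and 202. Only aKO astrocytes 222 lay inside the flowthrough range or below it. The log2 fold change of Slc38a3 was 0.82 (SE 0.37, 95% interval 0.04 to 1.60, edgeR adjusted p = 0.134).

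The catabolic enzymes Abat and Glud1 did not pass the test between fractions in the fit of 12 libraries, which leaves out the pairing by animal. With the animal as a block in the 8 paired libraries, both passed (edgeR, Benjamini-Hochberg adjusted p = 0.0284 for Abat and 0.0204 for Glud1). Abat had 89.0, 159 and 313 CPM as the lowest, median and highest in astrocytes, and 87.4 and 35.5 CPM in aKO flowthrough 203 and 205 and 57.8 and 187 CPM in WT flowthrough 201 and 202. WT flowthrough 202 again lay among the astrocyte values. On the log2 scale Abat differed by 0.86 (SE 0.43, 95% interval -0.05 to 1.77, edgeR, Benjamini-Hochberg adjusted p = 0.182). Glud1 had 100.4, 136 and 233 CPM as the lowest, median and highest in astrocytes, and 58.3 and 60.2 CPM in aKO flowthrough 203 and 205 and 36.0 and 95.04 CPM in WT flowthrough 201 and 202. Its fractions did not overlap, and the log2 fold change of 0.98 (SE 0.36, 95% interval 0.22 to 1.75) had an edgeR adjusted p of 0.0708.

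Of the receptors, Grm3 separated the fractions and Grm5 stood at low levels in both. Grm3 had 60.0, 157 and 202 CPM as the lowest, median and highest in astrocytes. In flowthrough it had 17.9 and 7.12 CPM in aKO 203 and 205, and 8.07 and 44.2 CPM in WT 201 and 202. The fractions did not overlap. Its log2 fold change was 2.74 (SE 0.49, 95% interval 1.71 to 3.76, edgeR, Benjamini-Hochberg adjusted p = 0.000969), the smallest p of the 9 members. Grm5 had 3.70, 9.23 and 14.7 CPM as the lowest, median and highest in astrocytes. In flowthrough it had 3.55 and 0.575 CPM in aKO 203 and 205, and 0.697 and 7.16 CPM in WT 201 and 202. WT flowthrough 202 lay above aKO astrocytes 205 and 208 and WT astrocytes 201, so the fractions overlapped. The log2 fold change was 1.57 (SE 0.63, 95% interval 0.24 to 2.91, edgeR adjusted p = 0.0968). The fractions were free of overlap for 3 of 9 members (Slc1a2, Glud1 and Grm3), against 10.9% of all genes, or 6.34% counting genes higher in astrocytes.

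The same 4 brains gave both fractions, and within each brain every member was higher in the astrocytes. For Slc1a2 the ratio of astrocyte to flowthrough CPM was 8.74 in aKO 203, 51.8 in aKO 205, 33.4 in WT 201 and 3.38 in WT 202. Slc6a11 had ratios of 6.59, 41.7, 32.8 and 1.93 in the same order, Slc1a3 had 12.5, 26.5, 13.1 and 2.32, and Grm3 had 11.3, 27.0, 19.0 and 3.80. The lowest ratio of all 9 members was found in WT 202, and the highest in aKO 205 for 8 of them, with Slc38a3 as the exception (3.97 in aKO 205 and 4.01 in WT 201). Among the 4 brains, Glul ratios lay between 1.56 and 4.35, Slc38a3 between 1.16 and 4.01, Abat between 1.35 and 4.57, Glud1 between 2.01 and 3.87 and Grm5 between 1.93 and 6.43. In aKO 203, aKO 205 and WT 201, the ratios of Slc1a2, Slc1a3, Slc6a11 and Grm3 all exceeded those of the other 5 members. In WT 202 they did not, since Slc6a11 (1.93) lay below Glud1 (2.01). Atp1b2, the gene behind the bead epitope, had ratios of 6.42, 14.5, 12.1 and 2.76 in aKO 203, aKO 205, WT 201 and WT 202.

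**Figure D2:**
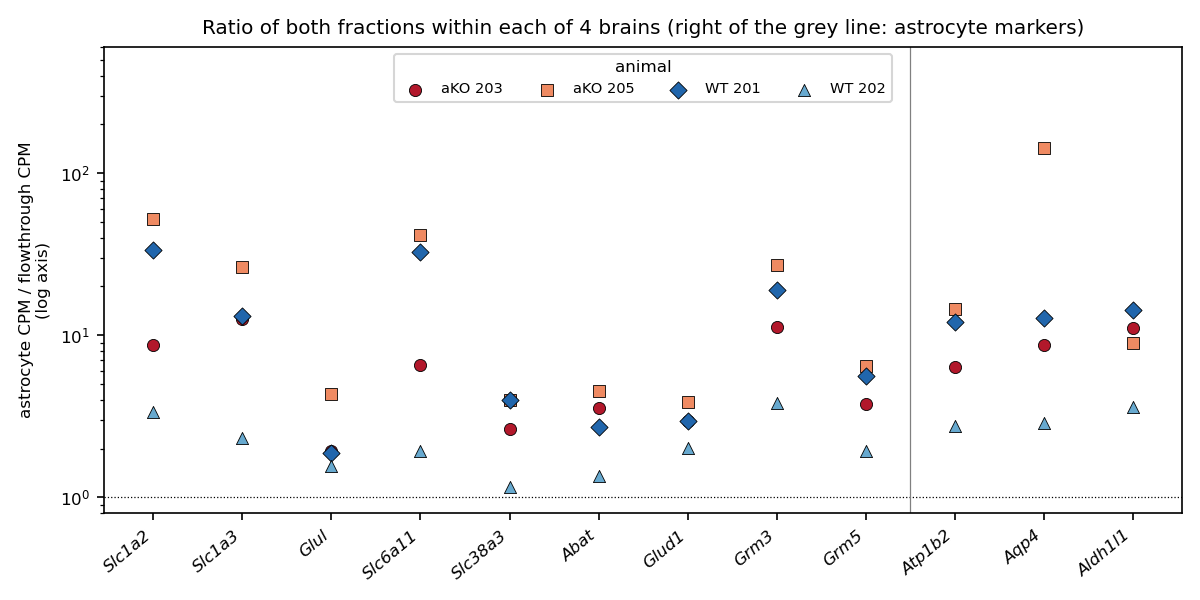
Ratio of astrocyte CPM to flowthrough CPM (log axis, dotted line at 1) within each of 4 brains for the 9 genes and, right of the grey line, 3 astrocyte markers. WT 202 has the lowest ratio for every gene, such as 3.38 for Slc1a2 and 2.76 for Atp1b2.

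With the animal as a block in the 8 libraries of these 4 brains, 7 of 9 members passed, where 29.5% of all 20189 genes passed. Without the block, 3 members and 17.6% of genes passed in the same 8 libraries. Abat (log2 fold change 1.14, adjusted p = 0.0284), Glud1 (1.18, adjusted p = 0.0204) and Grm5 (1.65, adjusted p = 0.00582) were called in the blocked edgeR fit with Benjamini-Hochberg adjustment and not in the fit of all 12 libraries. Glul (0.81, adjusted p = 0.122) and Slc38a3 (1.06, adjusted p = 0.0512) were called in neither. The number of members called ran from 2 to 6 with each library left out, and the share of all genes called moved with it. There were 6 members and 18.5% of genes without WT flowthrough 202, 2 members and 9.59% of genes without aKO flowthrough 205, and 2 members and 7.61% of genes without WT flowthrough 201. Without aKO astrocytes 222 and WT astrocytes 265 together, 6 members and 24.7% of genes were called. The call of Slc6a11, at a log2 fold change of 2.11 with all libraries, was lost without aKO astrocytes 203 (2.02, adjusted p = 0.0504), aKO astrocytes 205 (2.09, adjusted p = 0.0523), WT astrocytes 202 (1.97, adjusted p = 0.0631), aKO flowthrough 205 (1.74, adjusted p = 0.127) or WT flowthrough 201 (1.66, adjusted p = 0.0832). That of Slc1a3, at 2.33 with all libraries, was lost without aKO flowthrough 205 (2.10, adjusted p = 0.0707) or WT flowthrough 201 (1.95, adjusted p = 0.0720).

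Markers of astrocytes and of other cells moved with the fraction. Of the astrocyte markers, 13 of 18 were higher in astrocytes and all 18 estimates lay above 0, with a median log2 fold change of 2.48. Atp1b2 differed by 2.45 (SE 0.45), the water channel gene Aqp4 by 2.52 (SE 0.68) and the folate enzyme gene Aldh1l1 by 2.06 (SE 0.60) on the log2 scale. Slc1a2 (2.70), Slc1a3 (2.33), Slc6a11 (2.11) and Grm3 (2.74) lay in the range of these named markers or just above it. All of them lay within the range of the 18 markers, 0.77 to 3.53. Oligodendrocyte markers were also higher, 11 of 13, with 0.382% to 2.34% of the counts in astrocytes and 0.0961% to 0.671% in flowthrough. Neuron markers were higher for 5 of 11, with 0.0546% to 0.215% in astrocytes and 0.00846% to 0.0825% in flowthrough. Microglia (10 of 10), leukocyte (9 of 9) and erythrocyte markers (5 of 5) were lower in astrocytes. Choroid plexus markers took 1.22% to 17.1% of the counts in astrocytes and 8.28% to 32.2% in flowthrough. Their 8 estimates all lay below 0, and 0 were called. No marker list had a gene at 0 in every library of a group. With the mean of the astrocyte markers or of the oligodendrocyte markers as a covariate, 0 of 9 members were called by edgeR, and the share of all genes called was 1.94% with the astrocyte covariate and 2.29% with the oligodendrocyte covariate. Slc1a2 then had a log2 fold change of 0.67 and Grm3 of 0.94 with the astrocyte covariate, and 1.36 and 1.19 with the oligodendrocyte covariate. All astrocyte and oligodendrocyte marker estimates lay above 0 between fractions, so each covariate partly stands in for the fraction itself. The loss of calls therefore cannot be read as an effect of cell content. The part of these cells in the members' differences was not tested.

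**Figure D3:**
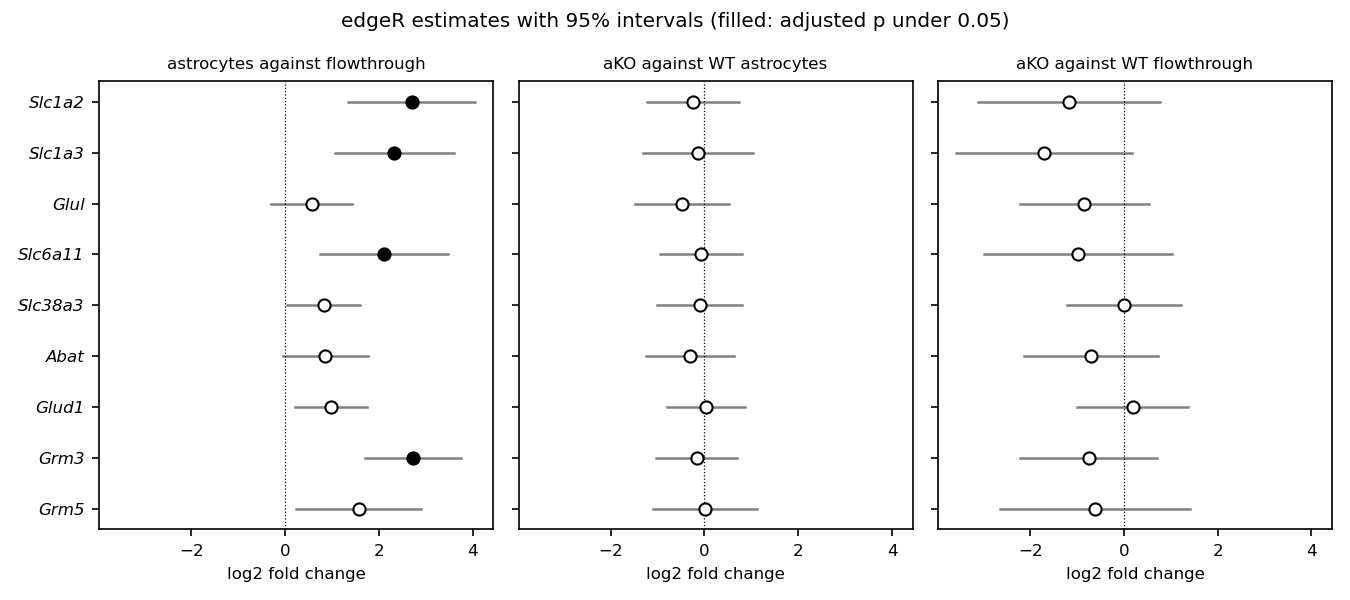
edgeR log2 fold changes of the 9 genes with 95% intervals for astrocytes against flowthrough (left), aKO against WT astrocytes (middle) and aKO against WT flowthrough (right), where filled points passed the adjusted threshold. Filled points appear for Slc1a2, Slc1a3, Slc6a11 and Grm3 in the left panel alone, and the intervals of all members include 0 in the middle and right panels.

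In aKO astrocytes, no member changed past the threshold against WT astrocytes. Estimates ran from -0.48 for Glul to 0.04 for Glud1 on the log2 scale, with 2 above 0 and 7 below. edgeR, with Benjamini-Hochberg adjustment over 18950 genes, called 0 of 9 members, where 0.0264% of all genes were called. At an unadjusted p under 0.05 it also had 0 members, against 1.58% of all genes, and DESeq2 and limma voom called 0. The median log2 fold change was -0.14 over the members and 0.02 over all genes. All adjusted p-values of the members were 0.9997. The groups overlapped for all 9 members, and 1.41% of all genes had no overlap.

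For Slc1a2, aKO astrocytes 203, 205, 208, 221 and 222 had 1118, 1385, 518, 1015 and 642 CPM, against 836, 1379 and 683 CPM in WT astrocytes 201, 202 and 265. The WT values lay within the aKO range, and the log2 fold change was -0.25 (SE 0.46, 95% interval -1.23 to 0.73). For Slc1a3, the same aKO libraries had 1642, 1264, 556, 1578 and 333 CPM, against 1191, 1480 and 455 CPM in WT. The lowest values of both groups came from aKO 222 and WT 265, the libraries with the fewest astrocyte marker counts. Its log2 fold change was -0.14 (SE 0.55, 95% interval -1.31 to 1.03). Slc6a11 averaged 271 ± 105 CPM in aKO (SD, n = 5) and 249 ± 51.3 CPM in WT (SD, n = 3), with a log2 fold change of -0.07 (SE 0.41, 95% interval -0.94 to 0.80). The test scales each library with TMM factors, and for Slc1a3, Slc6a11, Slc38a3 and Grm3 its estimate had the opposite sign to the difference of the CPM means.

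Glul had the largest estimate among the members. aKO astrocytes 203, 205, 208, 221 and 222 had 754, 829.8, 572, 809 and 375 CPM, against 837, 1284 and 362 CPM in WT astrocytes 201, 202 and 265. WT 202 lay above all other libraries and WT 265 below them. The log2 fold change was -0.48 (SE 0.47, 95% interval -1.47 to 0.51), with an edgeR unadjusted p of 0.320. Slc38a3 averaged 211 ± 107 CPM in aKO (SD, n = 5) and 204 ± 96.9 CPM in WT (SD, n = 3), a log2 fold change of -0.10 (SE 0.42). Abat averaged 174 ± 88.3 CPM in aKO and 187 ± 57.2 CPM in WT, a log2 fold change of -0.30 (SE 0.44). Both differences were smaller than the spread between animals. Glud1 averaged 157 ± 51.5 CPM in aKO and 133 ± 50.8 CPM in WT, a log2 fold change of 0.04 (SE 0.39). Grm3 averaged 141 ± 62.7 CPM in aKO and 139 ± 37.9 CPM in WT, a log2 fold change of -0.17 (SE 0.40), and Grm5 averaged 9.79 ± 4.50 CPM in aKO and 8.64 ± 4.98 CPM in WT, a log2 fold change of 0.02 (SE 0.52). The 95% intervals of the 9 members reached at most 1.13 above 0 and 1.47 below, so changes of up to about that size would be within the error.

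With library 202 counted as aKO, 6 estimates turned from below 0 to above 0, namely Slc1a2 (0.36), Slc1a3 (0.48), Glul (0.40), Slc6a11 (0.26), Abat (0.22) and Grm3 (0.18), and again 0 members were called. Slc38a3 was then -0.23, Glud1 0.58 and Grm5 0.73. No marker of other cells passed the test between genotypes, but in some lists all estimates shared a sign. All 13 oligodendrocyte and all 10 endothelial estimates lay above 0 in aKO, and all 8 ependymal and all 8 choroid plexus estimates lay below. Over all genes tested, 10045 of 18950 estimates lay above 0. Genes of a list come from the same libraries, so their shared sign is not separate evidence per gene. Choroid plexus markers took 1.73% to 10.6% of the counts in aKO astrocytes and 1.22% to 17.1% in WT astrocytes. Oligodendrocyte markers took 0.388% to 2.34% of the counts in aKO astrocytes and 0.382% to 1.29% in WT astrocytes. With the mean of the oligodendrocyte markers as a covariate, 0 of 9 members were called in aKO against WT astrocytes, and the log2 fold changes were -0.93 for Slc1a3, -0.74 for Glul, -0.65 for Slc38a3, -0.62 for Grm3, -0.54 for Abat, -0.30 for Slc1a2, -0.14 for Slc6a11, 0.024 for Glud1 and 0.34 for Grm5. With the mean of the astrocyte markers as a covariate, 0 were called and the log2 fold changes lay between -0.41 (Glul) and 0.032 (Glud1). The part of the endothelial, ependymal and choroid plexus markers was not tested.

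The balance of the glial glutamate transporters was measured within each library, as the ratio of Slc1a2 to Slc1a3 in the deposited RPKM, which scale reads to gene length as well as to the library. It was 0.443, 0.712, 0.606, 0.418 and 1.26 in aKO astrocytes 203, 205, 208, 221 and 222, against 0.456, 0.606 and 0.977 in WT astrocytes 201, 202 and 265. Slc1a3 was thus the higher of the pair per length in 7 of 8 astrocyte libraries, all but aKO 222. The log2 ratio averaged -0.66 ± 0.64 in aKO (SD, n = 5) and -0.63 ± 0.56 in WT (SD, n = 3). The difference of -0.03 was smaller than the spread (exact permutation test, two-sided p = 0.893, where the smallest possible p is 0.0357). In flowthrough the ratio was 0.633 and 0.364 in aKO 203 and 205, and 0.179 and 0.416 in WT 201 and 202.

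In flowthrough, no member changed in aKO animals past the threshold. With 2 aKO and 2 WT libraries, edgeR with Benjamini-Hochberg adjustment called 0 of 9 members and 0 of all genes (percentage called 0), DESeq2 and limma voom also called 0 members, and 0 members had an unadjusted p under 0.05, against 3.96% of all genes. The estimates were -1.17 (SE 0.92) for Slc1a2, -1.71 (SE 0.89) for Slc1a3, -0.98 (SE 0.95) for Slc6a11 and -0.85 (SE 0.65) for Glul on the log2 scale. They were 0.01 (SE 0.57) for Slc38a3, -0.70 (SE 0.67) for Abat, 0.19 (SE 0.56) for Glud1, -0.75 (SE 0.69) for Grm3 and -0.61 (SE 0.96) for Grm5. The median was -0.75 over the members and 0.07 over all genes. Only Glul had no overlap between the groups, with 390 and 191 CPM in aKO and 446 and 824 CPM in WT, and 32.7% of all genes had none, 20.3% counting those lower in aKO. WT flowthrough 202 had the most astrocyte marker counts of the 4 flowthrough libraries. Without it, 6 estimates turned from below 0 to above 0, at 1.76 for Slc1a2, 2.39 for Slc6a11, 1.70 for Grm5, 0.78 for Grm3, 0.24 for Abat and 0.12 for Slc1a3 on the log2 scale. The other 3 kept their sign, at -0.46 for Glul, 0.31 for Slc38a3 and 0.91 for Glud1.

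The genotype difference in astrocytes was not shown to differ from that in flowthrough for any member. The interaction term, which is the genotype's log2 fold change in the astrocyte fraction less the one in flowthrough, was 1.55 (SE 1.08) for Slc1a3, 0.92 (SE 1.13) for Slc1a2, 0.91 (SE 1.17) for Slc6a11 and between -0.15 and 0.65 for the other 6. edgeR with Benjamini-Hochberg adjustment called 0 members and 0 of all genes (percentage called 0), DESeq2 and limma voom also called 0 members, and 0 members had an unadjusted p under 0.05, against 2.42% of all genes.

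Per length, Glul was the most abundant member in both fractions. Its median was 235 RPKM in astrocytes, from 109 to 386, and 126 RPKM in flowthrough, from 57.5 to 248. In astrocytes it was followed by Slc1a3 (median 144 RPKM), Slc1a2 (70.4), Slc6a11 (57.7), Slc38a3 (53.9), Grm3 (44.4), Glud1 (33.2), Abat (20.6) and Grm5 (1.16). Glul exceeded Slc1a3, Glud1 exceeded Abat and Abat exceeded Grm5 in 8 of 8 libraries, and Slc1a3 exceeded Slc1a2 in 7 and Slc38a3 exceeded Grm3 in 7. Slc6a11 exceeded Slc38a3 in 4 of 8 and Grm3 exceeded Glud1 in 5 of 8, so these neighbours did not differ beyond their spread. In flowthrough, Slc38a3 (24.5 RPKM) and Glud1 (14.5 RPKM) had the next highest medians after Glul, and Slc1a2 (5.88 RPKM) came seventh. Together the 9 members took 0.481%, 0.481%, 0.243%, 0.430% and 0.185% of the counts in aKO astrocytes 203, 205, 208, 221 and 222, and 0.383%, 0.523% and 0.221% in WT astrocytes 201, 202 and 265. They took 0.0953% and 0.0471% in aKO flowthrough 203 and 205 and 0.0751% and 0.249% in WT flowthrough 201 and 202.

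Across the 8 astrocyte libraries, the levels of Slc1a3, Glul and Grm3 correlated with the astrocyte markers and that of Grm5 with neuron markers. Levels in log2 CPM, after TMM scaling with a prior count of 2, were set against the mean of the astrocyte, oligodendrocyte and neuron markers in 27 relations, with exact permutation tests and Benjamini-Hochberg adjustment over the 27. With astrocyte markers, Slc1a3 had r = 0.965 (exact permutation, adjusted p = 0.000670) and rho = 1 (adjusted p = 0.00134), Glul had r = 0.888 (0.00469) and rho = 0.905 (0.0411), and Grm3 had r = 0.884 (0.0331) and rho = 0.952 (0.0154). Without the 2 libraries farthest from the median, aKO 222 and WT 265, r was 0.946 for Slc1a3, 0.834 for Glul and 0.912 for Grm3. Slc1a2 (r = 0.606), Abat (0.670), Glud1 (0.531), Slc6a11 (0.483), Slc38a3 (0.389) and Grm5 (0.110) did not pass.

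With neuron markers, Grm5 had r = 0.946 (exact permutation, adjusted p = 0.0116) and rho = 0.857 (adjusted p = 0.0723), so the rank correlation did not pass. Without aKO 205 and WT 201, the 2 farthest libraries, r was 0.877. In these 2 libraries Grm5 was lowest, at 3.70 and 3.93 CPM, and their neuron markers took 0.0728% and 0.0662% of the counts, against 0.0546% in WT 265 and 0.0944% to 0.215% in the other 5. No relation with oligodendrocyte markers passed. At an unadjusted exact permutation p under 0.05 for r, 3 of 9 members passed with astrocyte markers, against 23.9% of 18950 genes, the markers themselves included. On the same rule 2 of 9 passed with neuron markers (Grm5, and Slc38a3 with r = -0.709), against 13.9% of genes, and 0 of 9 with oligodendrocyte markers, against 8.87%. Many genes thus moved with these marker means, and the members' counts are small. After the mean of each genotype was taken off, r with astrocyte markers was 0.966 for Slc1a3, 0.913 for Glul and 0.896 for Grm3, and r of Grm5 with neuron markers was 0.959, given as descriptions without a test. The markers and members share the scaling of their library, and the labels give no batch.

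**Figure D4:**
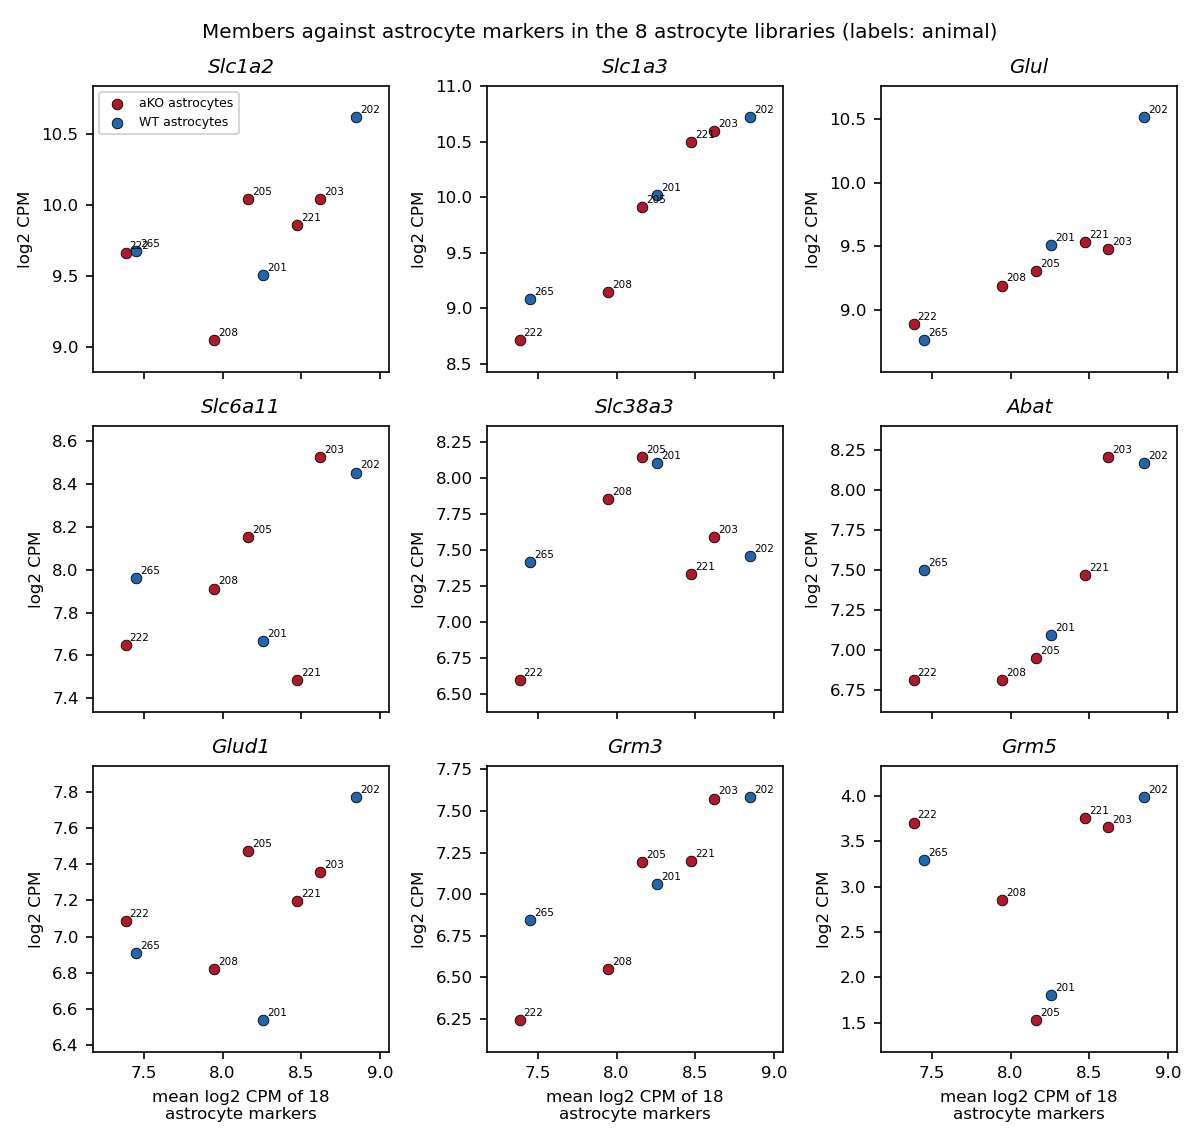
Level of each of the 9 genes (log2 CPM, own range per panel) against the mean log2 CPM of 18 astrocyte markers in the 8 astrocyte libraries, labelled by animal, with aKO and WT in different colours. Slc1a3 keeps the same order as the markers in all 8 libraries (rho = 1), whereas Grm5 (r = 0.110) and Slc38a3 (r = 0.389) do not.

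Most members correlated positively with one another, and most pairs with Slc38a3 or Grm5 had a lower r than the other pairs. Over the 36 pairs of members in the 8 astrocyte libraries, r of log2 CPM ran from -0.776 (Slc38a3 and Grm5) to 0.945 (Slc1a3 and Grm3), with a median of 0.568. Among Slc1a2, Slc1a3, Glul, Slc6a11, Abat, Glud1 and Grm3, the lowest r of any pair was 0.439 (Slc1a3 and Slc6a11). Every negative r involved Slc38a3. Grm5 had a positive r with all other members, from 0.069 (Grm3) to 0.562 (Abat). Slc38a3 ranged 4.85-fold between its lowest and highest aKO astrocyte library and Slc1a3 4.94-fold, against 2.16-fold for Glud1 and 2.21-fold for Glul. Among 8713 genes with a mean log2 CPM of at least 3, those most like each member by r over the 8 libraries were Efr3a (0.962) and Asph (0.948) for Slc1a2, and Glyr1 (0.992) and Qk (0.992) for Slc1a3. For Slc6a11 they were Rora (0.920) and Dzip3 (0.906), for Glul Rgs20 (0.955) and Gstz1 (0.945), and for Slc38a3 Glb1 (0.983) and Tob1 (0.977). For Abat they were Zfp239 (0.947) and Eps8 (0.940), and for Glud1 Btbd1 (0.983) and Atxn7l3b (0.981). For Grm3 they were Alkbh8 (0.987) and Dhx32 (0.973), and for Grm5 it was Calb1 (0.981), which some neurons express at high levels. These coefficients are descriptions over 8 libraries that share their scaling.

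Of 43 other genes of glutamate, glutamine and GABA handling, 42 passed the count filter, all but Grm6. In astrocytes against flowthrough 12 were higher and 2 lower, with a median log2 fold change of 0.93, where 8.52% of all genes were called in each direction. Of the other glutamate and cystine transporters 3 of 7 were higher, of the glutamate enzymes and mitochondrial carriers 2 of 14, of the GABA enzymes 2 of 5, and of the metabotropic glutamate and GABA-B receptors 4 of 7. Of the glutamine transporters 2 of 5 were lower and 0 were higher. In the 3 comparisons that involve the genotype, 0 of the 42 were called.

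The smallest p-values among the higher genes belonged to Slc7a11 and Gpt2. Slc7a11, the cystine and glutamate exchanger, had 29.2, 51.4 and 105 CPM as the lowest, median and highest in astrocytes and 3.91, 10.5 and 13.7 CPM in flowthrough. Its fractions did not overlap, and its log2 fold change was 2.32 (SE 0.36, edgeR, Benjamini-Hochberg adjusted p = 0.000294). Gpt2, a mitochondrial alanine transaminase that forms or uses glutamate, had 14.2, 22.2 and 39.6 CPM as the lowest, median and highest in astrocytes and 3.66, 6.42 and 9.46 CPM in flowthrough. Its fractions did not overlap either, and its log2 fold change was 1.53 (SE 0.31, edgeR adjusted p = 0.00288). The lower genes were Slc1a5, a neutral amino acid transporter, at -1.35 (SE 0.40, edgeR adjusted p = 0.0277), and Slc38a7, a lysosomal glutamine transporter, at -1.27 (SE 0.36, edgeR adjusted p = 0.0215). Slc1a5 had 1.15, 3.04 and 6.76 CPM as the lowest, median and highest in astrocytes and 6.67, 6.99 and 7.08 CPM in flowthrough, so it lay at low levels in both.

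**Figure D5:**
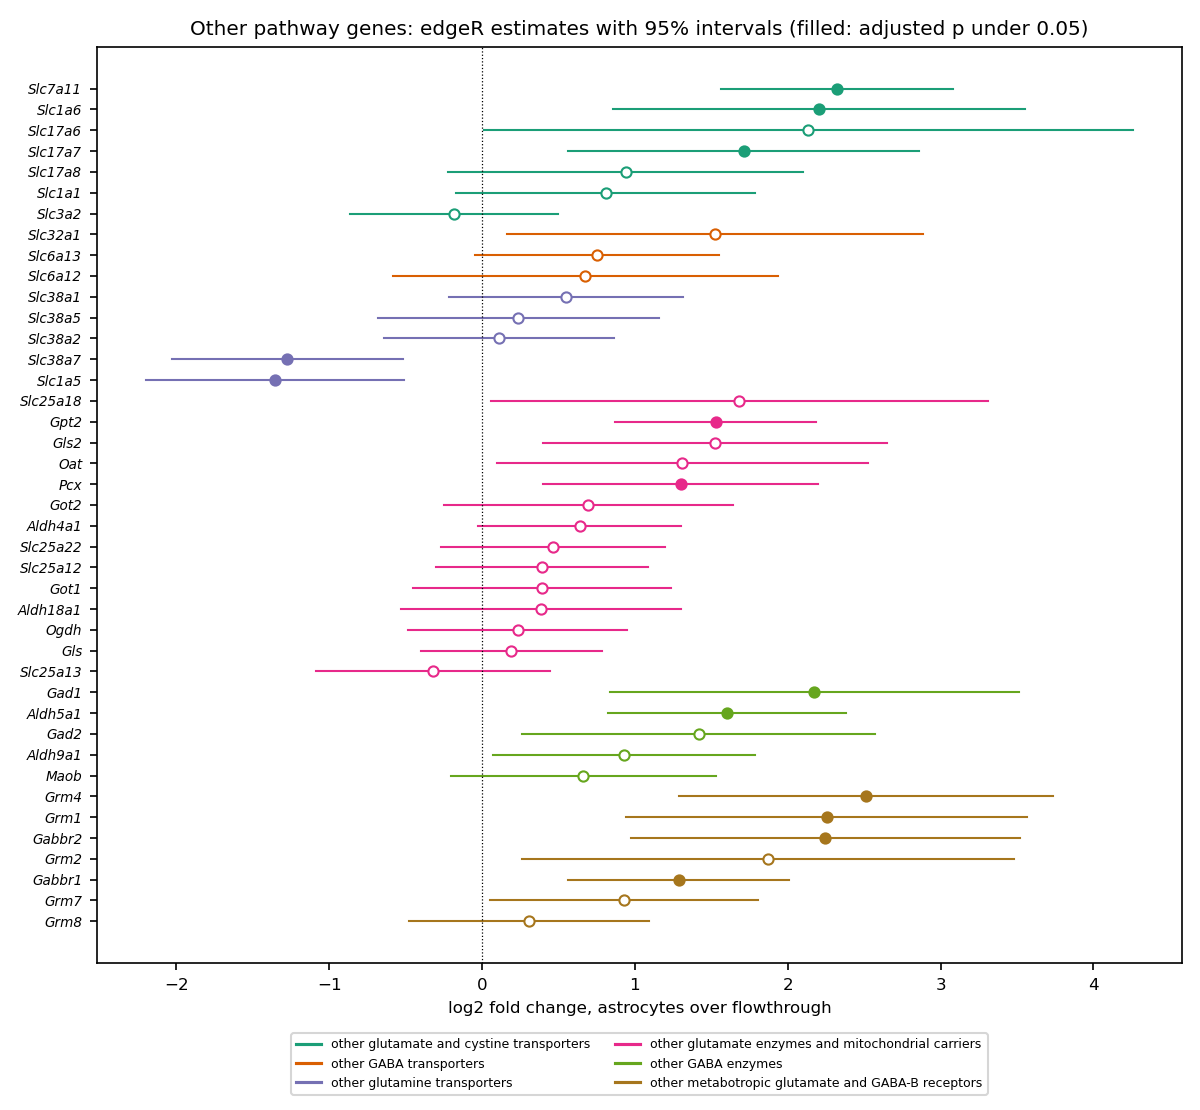
edgeR log2 fold changes, astrocytes over flowthrough, with 95% intervals for 41 of the 42 other tested genes of glutamate, glutamine and GABA handling, coloured by list, where filled points passed the adjusted threshold. Filled points right of 0 number 11, and those left of 0 are Slc38a7 and Slc1a5.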

How the data were processed

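The authors deposited, per library and gene, a read count, CPM and RPKM. The deposited count was the unit of all tests, the deposited CPM equalled the count over the library's total, and the deposited RPKM served only to compare levels between genes. Tools named in the submitters' processing notes are STAR 2.5.1a, featureCounts 1.4.6-p5, Subread and bcl2fastq, with the build GRCm38. The kit was SMARTer v1, per the labels' protocols, and the sources used here do not give the annotation release or strand setting. GENCODE vM21 named 40254 of 41388 identifiers.

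Counts were tested with edgeR 4.0.16 (R 4.3.3; quasi-likelihood, robust, TMM, filterByExpr with minimum count 10 and minimum total 15), two-sided, with Benjamini-Hochberg adjustment over all genes and a threshold of 0.05. The 8 astrocyte libraries were fitted alone, and the other comparisons came from a 4-group fit of 12 libraries. Standard errors are the log2 fold change over the square root of F. Numbers in titles were taken to be animals. Fractions of 1 animal share a brain, and the deviations of such pairs from their group means correlated with r of 0.166 (203), 0.404 (205), 0.0823 (201) and 0.424 (202). Permutation tests used scipy 1.17.1. The fit was tested on simulated data. Alternatives were no count filter, DESeq2 1.42.0 with its size factors, limma 3.58.1 (voom), each library left out, library 202 as aKO, aKO 222 and WT 265 left out, mitochondrially encoded genes and Ttr left out, marker covariates, 1 fit of all libraries and an animal block.

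The members, lists, alternatives and naming rule (the members, up to 3 other pathway genes per direction with the smallest p, 3 astrocyte markers, and the 2 genes most like each member among genes with an official symbol) were chosen with earlier results of these data known. The marker relations were chosen after the members' values were seen. Some genes that the rule names are not reported here.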

Additional observations from a re-analysis of the deposited data

How the results depend on the processing

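Values are log2 fold changes unless they are counts. Slc1a2 and Grm3 kept their call in all alternatives but the marker covariates. With the animal as a replicate block, 7 members (5951 genes) were called between fractions and 8 members (6628 genes) as a random effect, and 1 gene in the interaction, with or without the block. With the astrocyte covariate 0 members and 401 genes were called, with Slc1a3 at -0.14, Glul -0.64 and Abat -0.55, and with the oligodendrocyte covariate 0 and 472, with Glul at -0.24, Slc38a3 -0.12 and Abat -0.21. Leaving out a library gave 2 to 6 members and 1691 to 4107 genes.

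In aKO astrocytes 5 genes were called, 8 with no count filter, 15 by DESeq2, 0 with library 202 as aKO, 3 without aKO 222 and WT 265, 1 in the fit of all 12 and 0 to 5 with a library left out. In flowthrough 45 were called with no count filter and 0 to 1 with a library left out, and in the interaction 40 with no filter. Members whose sign turned were not called.

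In astrocytes voom turned Slc6a11 to 0.014. With the astrocyte library of 202 as aKO, Slc1a2 was 0.36, Slc1a3 0.48, Glul 0.40, Slc6a11 0.26, Abat 0.22 and Grm3 0.18. In the interaction, where flowthrough 202 stayed WT, Glud1 was then 0.44. Without aKO 222 and WT 265, Glud1 was -0.050, Grm5 -0.094 and the Slc1a2 to Slc1a3 ratio 0.015. In flowthrough Slc38a3 was -0.065 with no filter, -0.033 without aKO 222 and WT 265, -0.0196 without mitochondrially encoded genes and Ttr and -0.038 with the random block, where Grm5 was 0.018. The astrocyte covariate gave Slc1a2 0.42, Slc6a11 0.74, Grm3 0.34 and Grm5 0.38 in flowthrough, and in the interaction Slc1a2 -0.67, Glul -0.038, Slc6a11 -0.89, Abat -0.35, Grm3 -0.59 and Grm5 -0.32. The oligodendrocyte covariate gave Slc1a2 -0.22, Slc6a11 -0.45, Abat -0.23 and Grm3 -0.45 in the interaction, and the block gave Slc38a3 0.081, against 0.072 without it.

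With each library left out, aKO against WT astrocytes ran from -0.44 to 0.18 (Slc1a2), -0.47 to 0.32 (Slc1a3), -0.81 to 0.11 (Glul), -0.25 to 0.17 (Slc6a11), -0.28 to 0.18 (Slc38a3), -0.63 to 0.050 (Abat), -0.19 to 0.47 (Glud1), -0.36 to 0.074 (Grm3) and -0.37 to 0.58 (Grm5), and the ratio from -0.29 to 0.26. Under the other alternatives it ran from -0.37 to 0.36 (Slc1a2), -0.93 to 0.48 (Slc1a3), -0.74 to 0.40 (Glul), -0.14 to 0.26 (Slc6a11), -0.65 to -0.057 (Slc38a3), -0.54 to 0.22 (Abat), -0.050 to 0.58 (Glud1), -0.62 to 0.18 (Grm3) and -0.094 to 0.73 (Grm5), with adjusted p-values of 0.839 or more. With each library left out, the flowthrough estimates ran from -2.60 to 1.76 (Slc1a2), -2.56 to 0.12 (Slc1a3), -2.80 to 2.39 (Slc6a11), -0.32 to 0.31 (Slc38a3), -1.40 to 0.24 (Abat), -0.36 to 0.91 (Glud1), -1.55 to 0.78 (Grm3) and -2.36 to 1.70 (Grm5). The interaction ran from -2.02 to 2.36 (Slc1a2), -0.28 to 2.41 (Slc1a3), -0.042 to 0.96 (Glul), -2.46 to 2.74 (Slc6a11), -0.43 to 0.22 (Slc38a3), -0.54 to 1.11 (Abat), -0.88 to 0.41 (Glud1), -0.96 to 1.39 (Grm3) and -1.67 to 2.39 (Grm5). Where a call or sign moved, the cause was not tested. Each flowthrough group holds 2 libraries, and no alternative at lower depth was run.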
